A study of Mus musculus with 12 samples.

Results

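In mouse liver cells 4 flavin monooxygenase genes and 2 aldehyde oxidase genes were read, with calls made at an adjusted p below 0.05. In hepatocellular carcinoma (HCC) 4 were called lower and 1 higher than in normal hepatocytes, beside 26.0% and 23.0% of all genes tested. Between aggregate and non-aggregate premalignant hepatocytes 0 of the 6 were called, beside 0.761% of all genes. Aox3 was 7.26-fold lower in HCC, Fmo5 2.53-fold, Fmo1 2.32-fold and Aox1 1.85-fold lower, while Fmo4 was 4.33-fold higher and Fmo2 lay near the detection limit. The genes were Fmo1, Fmo2, Fmo4, Fmo5, Aox1 and Aox3, and every probe that the platform annotation assigns to them was taken, 11 of 45281 probes. All 6 genes passed the detection filter, among 10641 genes tested, Fmo2 by detection on only 3 of 12 arrays.

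Total RNA of liver cells isolated from B6 mice, males matched for age, was hybridised to 12 Illumina bead arrays, 3 for each of 4 groups. The groups were normal hepatocytes, HCC labelled as fully malignant, and premalignant hepatocytes labelled either aggregate or non-aggregate. The tumours had been induced with DEN (diethylnitrosamine), a liver carcinogen, and the labels name no other treatment or allele. The labels do not say whether replicates came from separate animals or from pools, nor give dose or age, so the p-values measure the spread between samples that may be technical replicates. With 3 arrays a group, precision is limited by their number. The array identifiers place normal hepatocytes with HCC on the same chip and aggregates with non-aggregates on another, so chip and group cannot be told apart in any comparison across these pairs.

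Flavin monooxygenases are microsomal enzymes that use a bound flavin, NADPH and oxygen to place an oxygen atom on the nitrogen or sulphur of drugs, amines and other foreign compounds. Aldehyde oxidases are cytosolic enzymes that carry a molybdenum cofactor, iron-sulphur clusters and a flavin, and oxidise aldehydes and nitrogen-containing rings. Liver is a main site of both families, and they work beside the cytochromes P450 in the first phase of drug metabolism. In the RefSeq annotation of assembly GRCm38.p6 Aox1, Aox3, Aox4 and Aox2 follow each other directly on chromosome 1, as do Fmo4, Fmo1, Fmo2 and Fmo6 elsewhere on that chromosome, whereas Fmo5 lies on chromosome 3.

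Promoters of 4 of the 5 genes that changed are shown so that those of the neighbours Aox1 and Aox3, which both fell, can be set beside those of Fmo5, which also fell, and Fmo4, which rose. RefSeq promoter sequences of assembly GRCm38.p6 were found for 5 of the 6 genes, all but Fmo1, and each covers 250 bases before and 50 bases from the annotated start, read 5′ to 3′ on the gene's own strand. Capitals mark matches to any of 6 motifs searched on both strands.
Aox3, chr1:58112886-58113185, plus strand: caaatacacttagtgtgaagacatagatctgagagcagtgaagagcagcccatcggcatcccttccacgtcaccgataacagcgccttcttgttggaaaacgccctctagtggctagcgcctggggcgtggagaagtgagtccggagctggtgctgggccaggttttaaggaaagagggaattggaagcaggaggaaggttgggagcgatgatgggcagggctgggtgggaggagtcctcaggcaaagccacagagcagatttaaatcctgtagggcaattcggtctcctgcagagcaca
Aox1, chr1:58029719-58030018, plus strand: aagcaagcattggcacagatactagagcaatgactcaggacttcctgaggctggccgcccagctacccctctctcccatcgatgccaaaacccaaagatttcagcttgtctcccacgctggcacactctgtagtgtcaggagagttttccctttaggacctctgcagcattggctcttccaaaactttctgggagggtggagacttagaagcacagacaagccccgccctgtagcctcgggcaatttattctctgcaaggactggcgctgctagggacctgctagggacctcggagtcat
Fmo5, chr3:97628769-97629068, plus strand: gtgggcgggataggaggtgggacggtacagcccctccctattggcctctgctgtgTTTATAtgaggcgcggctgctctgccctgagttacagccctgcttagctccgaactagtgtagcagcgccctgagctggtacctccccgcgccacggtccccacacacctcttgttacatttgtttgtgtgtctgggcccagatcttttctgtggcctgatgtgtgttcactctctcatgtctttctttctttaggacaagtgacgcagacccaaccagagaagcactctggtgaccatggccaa
Fmo4, chr1:162812500-162812799, minus strand: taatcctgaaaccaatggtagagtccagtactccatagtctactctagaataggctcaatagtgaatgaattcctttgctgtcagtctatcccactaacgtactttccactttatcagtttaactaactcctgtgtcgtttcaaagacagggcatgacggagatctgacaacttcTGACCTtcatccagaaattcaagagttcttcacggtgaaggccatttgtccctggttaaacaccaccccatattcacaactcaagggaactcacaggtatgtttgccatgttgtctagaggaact
The motifs were the nuclear receptor half-site AGGTCA, held by 16.3% of all 32851 promoters of this length, the antioxidant response element core TGACNNNGC (12.4%), the STAT motif TTCNNNGAA (8.3%), the forkhead motif TGTTTAC (3.65%), the HNF1 motif (0.00913%) and the TATA motif TATAAA (13.6%). No motif overlapped another in these 4 promoters. The Fmo4 promoter held 1 nuclear receptor half-site, on the reverse strand from position -75 relative to the start. The Fmo5 promoter held 1 TATA motif, on the reverse strand from position -195, and the windows of Aox1 and Aox3 held no match to these letters.

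Aox3 (probe ILMN_2640097), which with Aox1 encodes the aldehyde oxidases of mouse liver, showed the largest change of the 6 genes. Levels are background-corrected, quantile-normalized log2 intensities of 1 probe per gene, and they can be compared between arrays but not between genes. Aox3 stood at 12.69, 13.11 and 13.07 in normal hepatocytes, at 13.25, 13.16 and 12.93 in non-aggregates, at 13.29, 13.17 and 12.71 in aggregates, and at 9.86, 10.32 and 10.12 in HCC. The 3 HCC arrays lay far below all 9 others, and the other 3 groups overlapped each other. In HCC the level fell by 2.86 on the log2 scale (SE 0.19, n = 3 per group; 7.26-fold lower, 95% confidence interval 5.42-fold to 9.71-fold). In limma, with Benjamini-Hochberg adjustment over all 10641 genes, the adjusted p was 5.59e-07. Among all genes tested it ranked 48 from the most negative change. In bulk samples such as these, fewer cells of a type and less RNA per cell cannot be told apart, here or for the other genes.

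Aox1 (ILMN_2679131), the mouse counterpart of the human aldehyde oxidase gene, gave a dim signal. Its levels were 5.20, 6.34 and 5.61 in normal hepatocytes, 5.46, 5.74 and 5.61 in non-aggregates, 5.38, 5.58 and 5.54 in aggregates, and 4.95, 4.96 and 4.58 in HCC. Every HCC array was below every other array, and normal replicate 2 stood above the rest. Aox1 fell by 0.88 in HCC (SE 0.24, adjusted p = 0.00901), and by 0.59 without normal replicate 2 (adjusted p = 0.0253). With median scaling the change was -0.50 and did not pass (adjusted p = 0.108), and without background correction it was -0.40 (adjusted p = 0.0231). A second probe for Aox1 fell by 0.96 (SE 0.20, adjusted p over probes 0.00212), and it was detected on all 3 normal arrays but on only 1 of 3 HCC arrays.

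Fmo5 (ILMN_1230890) encodes a flavin monooxygenase that is known to insert oxygen beside carbonyl groups and to act poorly on the amines its relatives use. Its levels were 11.35, 12.19 and 12.47 in normal hepatocytes, 11.65, 11.97 and 12.24 in non-aggregates, 11.75, 11.9985 and 12.16 in aggregates, and 11.17, 10.54 and 10.27 in HCC. Normal replicate 1 and HCC replicate 1 came close to each other, yet the groups did not overlap. Fmo5 fell by 1.34 in HCC (SE 0.30, 2.53-fold lower, interval 1.62-fold to 3.96-fold, adjusted p = 0.00281). A second, dimmer probe of Fmo5 fell by 2.05 (SE 0.30, adjusted p over probes 0.000166), with means of 8.67 ± 0.38 (SD, n = 3) in normal hepatocytes and 6.63 ± 0.54 in HCC.

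Fmo1 (ILMN_2838308), a main flavin monooxygenase of male mouse liver, was even among the normal and among the HCC arrays. Its levels were 11.04, 10.92 and 11.16 in normal hepatocytes, 11.17, 11.75 and 11.71 in non-aggregates, 11.13, 11.63 and 11.42 in aggregates, and 9.97, 9.66 and 9.85 in HCC. HCC lay below all other arrays, and all 3 non-aggregate arrays lay above the normal ones, replicate 1 only just. Fmo1 fell by 1.21 in HCC (SE 0.19, 2.32-fold lower, interval 1.75-fold to 3.07-fold, adjusted p = 0.000242). The other probes of Fmo1 did not give this call. The dimmer detected probe ran from 5.26 to 6.98 among normal arrays, overlapped between the groups and differed by -0.87 (SE 0.54, adjusted p over probes 0.204), and the remaining probe was detected on 0 of 12 arrays.

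Fmo4 (ILMN_2591271), a flavin monooxygenase of low abundance whose substrates are little known, went the other way. Its levels were 5.51, 5.19 and 5.43 in normal hepatocytes, 5.12, 6.06 and 5.30 in non-aggregates, 5.33, 5.99 and 5.37 in aggregates, and 7.58, 7.81 and 7.07 in HCC. Every HCC array exceeded all others by about 1 log2 unit or more, and replicate 2 was the highest array within each premalignant group. Fmo4 rose by 2.11 in HCC (SE 0.27, 4.33-fold higher, interval 2.88-fold to 6.52-fold, adjusted p = 6.81e-05), which ranked 446 from the most positive change. Without background correction the rise was 1.30 (adjusted p = 9.09e-05), and the deposited linear signal ran from 69.6 to 80.9 in normal hepatocytes and from 200.4 to 287 in HCC. Its direct neighbour Fmo1 fell in the same comparison.

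Fmo2 (ILMN_2604975), known as the lung form in several mammals, was barely measured. It was detected on 1 normal, 0 non-aggregate, 1 aggregate and 1 HCC array, and levels over all arrays ran from 4.39 to 5.06. Its change in HCC was -0.18 (95% confidence interval -0.54 to 0.18, adjusted p = 0.39). The second probe of Fmo2 was detected on 0 of 12 arrays, as were all probes of Fmo6, Fmo9, Aox2 and Aox4.

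**Figure D1:**
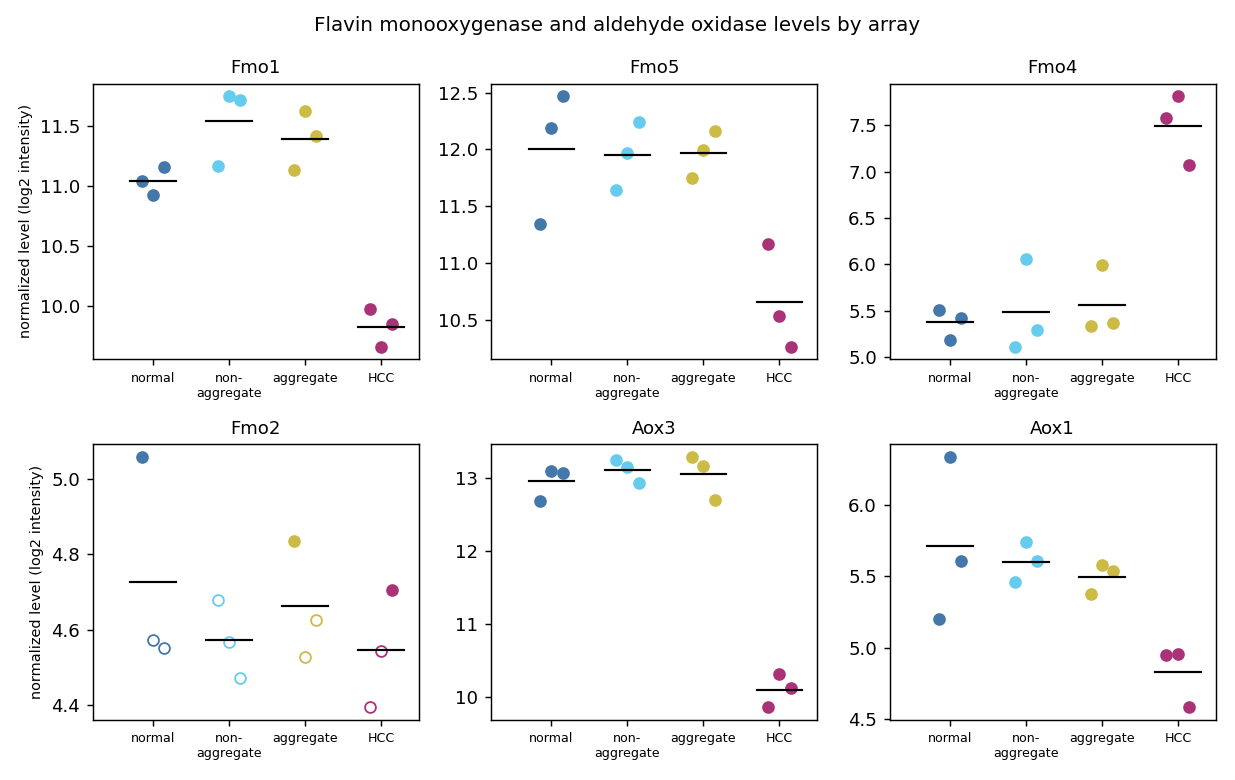
Normalized level (log2 intensity, y axis, own scale per panel) of each gene on every array, by group on the x axis; each point is 1 array, filled where the probe was detected (detection p below 0.05), and horizontal lines are means of 3 arrays. HCC lies below all other arrays for Fmo1, Fmo5, Aox3 and Aox1 and above them for Fmo4, and Fmo2 is mostly undetected.

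**Figure D2:**
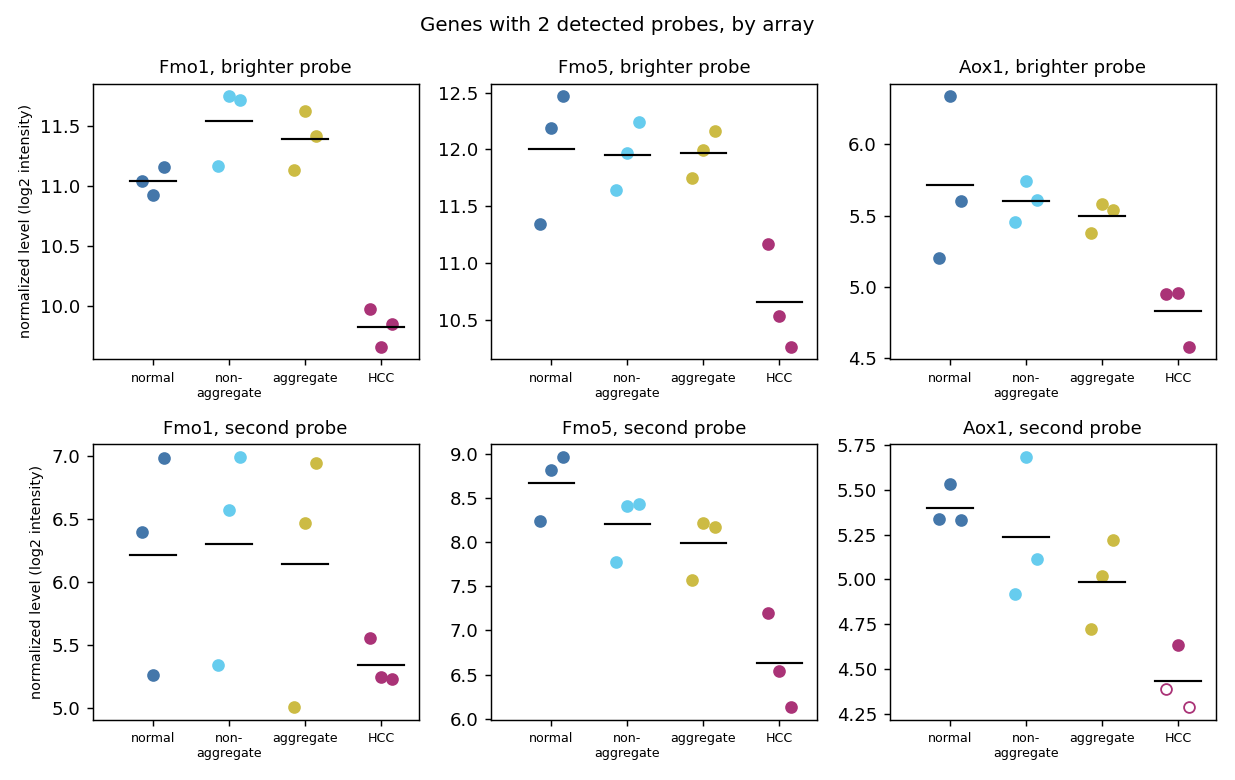
Normalized level (log2 intensity, y axis, own scale per panel) of the 2 detected probes of Fmo1, Fmo5 and Aox1 on every array, by group on the x axis; points are arrays, open where the probe was not detected, and horizontal lines are means of 3 arrays. Both Fmo5 probes and both Aox1 probes are lowest in HCC, while the second Fmo1 probe spreads from 5.26 to 6.98 among normal arrays.

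Read over all 6 genes, the HCC samples differed from normal hepatocytes mostly downwards. Of the 6 genes 4 fell and 1 rose, where 26.0% of all genes tested were called lower, 23.0% higher and 49.0% either way. The median change of the 6 was -1.05 on the log2 scale, beside -0.08 over all genes. All 5 called genes had groups that did not overlap, as had 52.8% of all genes. So many genes changed here that the count of 5 is not far from the background. By size, Aox3 ranked 48, Fmo5 499, Fmo1 662 and Aox1 1258 from the most negative of the 10641 changes, and Fmo4 446 from the most positive.

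Aggregate and non-aggregate cells did not differ past the threshold in any of these genes. Of the 6 genes 0 passed, where 0.761% of all genes were called, all of them higher. At an unadjusted p below 0.05, 609 genes were higher and 155 lower, and the smallest unadjusted p of the 6 was 0.435, for Fmo1. The changes were -0.06 for Aox3 (95% confidence interval -0.48 to 0.36), -0.10 for Aox1 (-0.62 to 0.42), -0.15 for Fmo1 (-0.56 to 0.25), 0.02 for Fmo5 (-0.63 to 0.66), 0.07 for Fmo4 (-0.52 to 0.67) and 0.09 for Fmo2 (-0.27 to 0.45). All 6 genes overlapped between these groups, whereas 17.6% of all genes did not. Same-numbered arrays of these groups deviated together, and with the replicate number as a block 7.92% of all genes were called (654 or 6.15% higher, 189 or 1.78% lower), yet still 0 of the 6 genes. The block narrowed the intervals, to -0.28 to 0.17 for Aox3, -0.36 to 0.06 for Fmo1 and -0.21 to 0.36 for Fmo4. The dimmer probe of Fmo5 stood at 7.57, 8.22 and 8.17 in aggregates and at 7.77, 8.41 and 8.44 in non-aggregates, lower in each of the 3 numbered pairs although the groups overlapped. Its change of -0.22 did not pass with the replicate block, a fit chosen after seeing the data (95% confidence interval -0.58 to 0.14, adjusted p over probes 0.543). Nor did those of the dimmer probes of Aox1 (-0.25, adjusted p over probes 0.357) and Fmo1 (-0.16, adjusted p over probes 0.829).

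**Figure D3:**
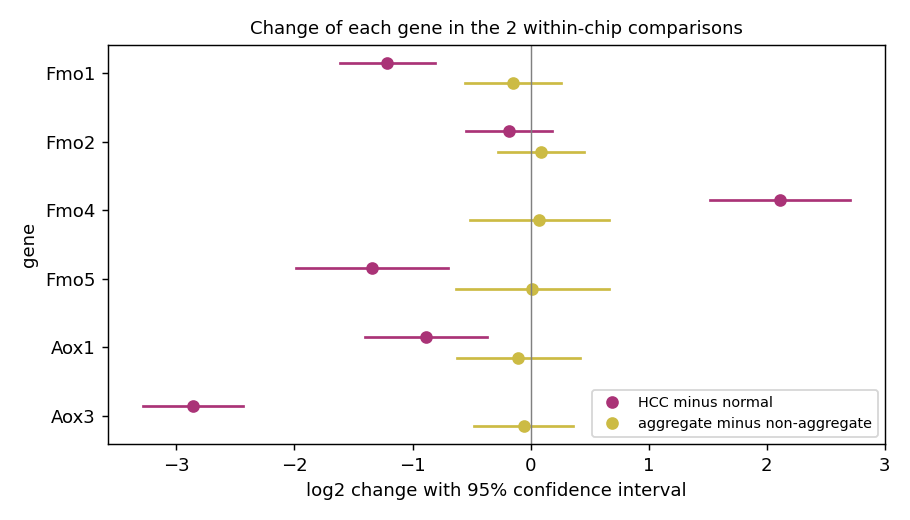
Log2 change of each gene (x axis, point with its 95% confidence interval as a line) in HCC minus normal hepatocytes and in aggregate minus non-aggregate cells; genes are on the y axis. The intervals for HCC leave out 0 for every gene but Fmo2, and those for aggregates all include 0.

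The change in HCC and the change in aggregates share no arrays, and their difference was tested in the same limma fit. Aox3 differed by -2.80 (SE 0.27, adjusted p = 9.75e-05), Fmo4 by 2.04 (SE 0.38, adjusted p = 0.0037) and Fmo1 by -1.06 (SE 0.26, adjusted p = 0.0145). The dimmer detected probe of Fmo1 did not pass (-0.71, SE 0.76, adjusted p over probes 0.552). Fmo5 differed by -1.36 (SE 0.42, adjusted p = 0.0388), and the second probe of Fmo5 by -1.83 (adjusted p over probes 0.0109). So 4 of 6 genes passed, 3 lower and 1 higher, where 20.8% of all genes did (1065 lower, 1149 or 10.8% higher), while Aox1 (-0.78, adjusted p = 0.121) and Fmo2 (-0.27, adjusted p = 0.444) did not. The call for Fmo5 was lost without any 1 of 8 arrays, namely normal replicates 2 and 3, HCC replicates 2 and 3, non-aggregate replicates 1 and 2 and aggregate replicates 2 and 3, with adjusted p from 0.0703 to 0.0897. Over all 12 arrays left out in turn its value ran from -1.68 to -1.12. For Fmo1 it was lost with median scaling (-0.92, adjusted p = 0.0764), and Aox1 passed without normal replicate 1 (-1.05, adjusted p = 0.0354).

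Across chips, both premalignant groups were set beside normal hepatocytes and beside HCC. Against normal hepatocytes 0 of 6 genes passed in aggregates, where 5.07% of all genes were called (3.33% higher, 1.74% lower), and 0 of 6 in non-aggregates, where 1.49% were (0.780% higher, 0.714% lower). Among the probes that represent the genes the largest difference was Fmo1 in non-aggregates, at 0.50 (95% confidence interval 0.10 to 0.91, adjusted p = 0.23). Its groups did not overlap, but the share of all genes without overlap was not computed for this pair. The dimmer detected probe of Fmo1 gave 0.09 there (SE 0.54, adjusted p over probes 0.973), with groups that overlapped. For Aox3 the differences from normal hepatocytes were 0.10 in aggregates (-0.32 to 0.52) and 0.16 in non-aggregates (-0.26 to 0.58). For Fmo4 they were 0.19 (-0.40 to 0.78) and 0.11 (-0.48 to 0.70). The probes of Fmo5 differed here, the brighter giving -0.03 in aggregates and -0.05 in non-aggregates and the dimmer -0.69 (adjusted p over probes 0.223) and -0.47 (0.531), none of which passed.

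Against HCC, 5 of 6 genes passed in each premalignant group, 4 higher and 1 lower, where 35.1% of all genes were called for aggregates (17.7% higher, 17.5% lower) and 45.7% for non-aggregates (23.9% higher, 21.8% lower). Aox3 was 7.78-fold higher in aggregates and 8.09-fold higher in non-aggregates than in HCC, Fmo1 2.95-fold and 3.28-fold, and Fmo5 2.48-fold and 2.45-fold. The dimmer detected probe of Fmo1 passed in neither premalignant group. On the log2 scale it gave 0.80 in aggregates (adjusted p over probes 0.282) and 0.96 in non-aggregates (0.169). Fmo4 was 3.80-fold and 4.0-fold lower in these groups than in HCC. Aox1 was 1.59-fold higher in aggregates (adjusted p = 0.0466), a call that was lost whichever of the 6 arrays of these groups was left out (adjusted p 0.0633 to 0.153), and 1.71-fold higher in non-aggregates (adjusted p = 0.0195), a call lost without HCC replicate 3 (0.075) or non-aggregate replicate 2 (0.0663). Comparisons with HCC share its 3 arrays, so they are not independent of each other or of the change in HCC. Levels here are those of the probe that represents each gene. Ordered by them, HCC thus stood alone at the low end for Aox3, Fmo1 and Fmo5 and at the high end for Fmo4. No neighbours among the other 3 groups differed past the threshold.

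Genes whose levels over the 12 arrays ran most like those of each member were found by the root mean square distance between log2 profiles, each centred on its own mean. Nearest to Aox3 were the organic anion transporter family gene Slc22a30 (distance 0.23), Macrod1 (0.23) and the uptake carrier gene Slco1a4 (0.25), with changes in HCC of -2.77, -2.90 and -2.99. Aox3 itself varied by 1.29 about its mean, and the median distance of all genes to it was also 1.29. Nearest to Fmo1 were Stard5, Tprkb and Acot7 (0.18 to 0.19), nearest to Fmo5 Zfp385b, Fbxo36 and the glycolate oxidase gene Hao1 (0.24 to 0.25), and nearest to Aox1 Pard6a, Ccdc28a and Slc15a4 (0.16 to 0.17). Nearest to Fmo4 were the apolipoprotein gene Apoc2, the desaturase gene Fads2 and Fbxw15 (0.27 in each), which changed by 1.76, 1.71 and 2.24 in HCC. For Fmo2, Icmt, Foxn4 and Vps37c lay at 0.10 to 0.11, with Fmo2 itself varying by only 0.17. Among the 6 genes Fmo1 and Fmo5 were the closest pair, at 0.37, with Fmo5 and Aox1 also at 0.37, and Aox3 and Fmo4 the farthest, at 2.18.

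Genes that make or share the cofactors of these enzymes were described beside them. Of 8 tested genes of the molybdenum cofactor and other molybdoenzymes 4 fell and 1 rose in HCC, with a median of -0.48. Sulphite oxidase Suox, which uses the same metal as aldehyde oxidase, fell by 2.58 (SE 0.24, adjusted p = 7.78e-06). Gephyrin Gphn, which inserts the metal into the cofactor, fell by 1.42 (SE 0.26), and Mtarc2, a mitochondrial molybdoenzyme, fell by 1.13 (SE 0.19). Mocs3, a cofactor synthesis gene, rose by 0.72 (SE 0.24, adjusted p = 0.025) although its groups overlapped. Mocos, the sulphurase that activates aldehyde oxidases, had a change of 0.01 (95% confidence interval -0.50 to 0.51, adjusted p = 0.978), and xanthine dehydrogenase Xdh one of 0.14 (-0.42 to 0.69).

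Of 7 tested genes of flavin supply and electron donation 5 fell and 2 rose in HCC, with a median of -0.65. The riboflavin transporter gene Slc52a3, not detected on any normal array, was at least 2.46-fold higher (adjusted p = 1.99e-05), a bound set against the higher of its own level and the lowest level of any detected probe on each normal array. The malic enzyme gene Me1 fell by 1.38 (SE 0.41) with groups that overlapped, the NADPH-producing Idh1 by 0.77 (SE 0.15) and cytochrome b5 Cyb5a by 0.73 (SE 0.14). Without normal replicate 1, 4 genes of this list were called.

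Of 16 tested xenobiotic receptors and liver regulators 8 fell and 1 rose in HCC, with a median of -0.64. The growth hormone receptor gene Ghr fell by 1.85 (SE 0.23), the pregnane X receptor gene Nr1i2 by 1.47 (SE 0.27) and the bile acid receptor gene Nr1h4 by 1.31 (SE 0.23). Nfe2l2, which encodes the oxidative stress regulator NRF2, rose by 1.42 (SE 0.18, adjusted p = 6.01e-05). Foxa3 (0.01) and Keap1 (-0.13), which encodes the inhibitor of NRF2, did not pass.

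Of 24 other tested genes of oxidation and hydrolysis 17 fell and 2 rose in HCC, with a median of -1.56. Cyp7b1, an oxysterol hydroxylase, fell by 3.61 (SE 0.41), and Cyp2f2, a cytochrome P450, by 3.12 (SE 0.44). The carboxylesterase genes Ces3b and Ces3a, whose probes may read each other's close copies, changed by -3.39 and -3.18. Cyp2a12 (0.13, adjusted p = 0.583) and the alcohol dehydrogenase gene Adh1 (-0.20, adjusted p = 0.482) did not pass. In aggregates 0 genes of these 4 lists passed, and with the replicate block 1 gene of the last list did. These lists are described beside the 49.0% of all genes called in HCC, and nothing particular to them is read from their counts.

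**Figure D4:**
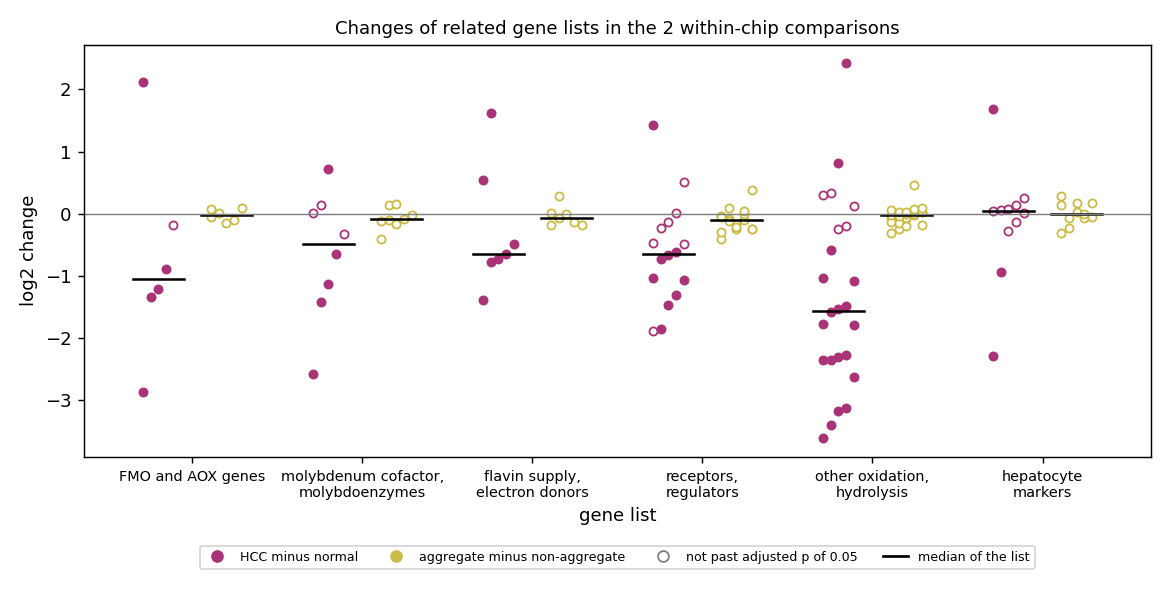
Log2 change (y axis) of each tested gene in 6 lists (x axis), for HCC minus normal hepatocytes and aggregate minus non-aggregate cells; each point is 1 gene, filled where its adjusted p was below 0.05, and bars are list medians. Values for HCC spread from -3.61 to 2.42, mostly below 0 in each list but the hepatocyte markers, whereas those for aggregates stay close to 0.

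Markers of cell types were read beside these results. Hepatocyte markers in HCC had 1 higher and 2 lower of 11 (median 0.04). The probe of Alb was higher (1.69, adjusted p = 2.43e-05), and Tat (-2.28, adjusted p = 0.000695) and Cps1 (-0.94, adjusted p = 0.00572) were lower. The Alb probe stood at only 8.83 in normal hepatocytes and 10.52 in HCC, where Ttr stood at 15.27 and 15.28. Whether this probe reads Alb RNA in full was not tested. Hpx, Apoa1 and Ttr, the markers with the highest levels, stood at 0.26, 0.14 and 0.01 and did not pass. The summed linear level of the hepatocyte markers ran from 226833 to 251051 in HCC and from 227620 to 240752 in normal hepatocytes. These markers were detected in all 4 groups, with sums of 218747 to 229182 in non-aggregates and 229447 to 240353 in aggregates. The brightest probes dominate these sums, and quantile normalization holds the top of the scale alike between arrays. The sums therefore cannot show whether hepatocyte content was equal. Endothelial markers were higher in 11 of 12, with sums of 8156 to 12060 in HCC against 1503 to 4221 in normal hepatocytes. Macrophage markers were higher in 7 of 10 (8278 to 10326 against 1102 to 1319) and stellate cell and fibroblast markers in 10 of 12 (8963 to 19095 against 777 to 1721). Of all genes tested 23.0% were called higher. Mpeg1, at 12.47 in HCC, weighed most in the macrophage sum, and Vsig4 (0.64), Clec4f (0.22) and Marco (0.11) were not called. In normal hepatocytes 1 of these macrophage and 5 of these stellate markers were not detected on any array, and 0 in HCC.

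The other lists held few tested genes, since most of their markers on the array failed the detection filter. Tested were 1 of 5 bile duct, 3 of 7 lymphocyte, 1 of 5 neutrophil and 1 of 3 red cell markers on the array. A single gene cannot stand for the content of its cell type. The bile duct marker Sox9 rose by 1.81 in HCC, lymphocyte markers in 2 of 3, the neutrophil gene S100a8 by 2.50, and the red cell gene Alas2 fell by 3.28. Aggregates also held more of several markers than non-aggregates, with endothelial sums of 5216 to 7586 against 2318 to 2961, macrophage sums of 2467 to 7335 against 872 to 2954, which overlapped, and stellate sums of 3244 to 4686 against 724 to 1269, and with 4 of 12 endothelial, 2 of 10 macrophage and 3 of 12 stellate markers called higher. In that comparison the 6 genes did not pass. The part that other cells have in the rise of Fmo4 and in the falls of the other genes was not tested.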

How the data were processed

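Groups and replicates were taken from sample titles, and columns were matched by the array identifier in the labels. Per the file headers, the deposited values are AVG_Signal, a linear intensity for every probe, and a detection p-value beside it; the lowest intensity was 30.6, with earlier steps not given in the sources used here. A second deposited table gives normalized intensity values, made by a method not given in the sources used here. Probes detected per array ran from 15354 to 19482 of 45281, and mean signal from 314 to 403; 0 data columns stayed unmapped.

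Background was corrected with normexp, its level inferred from detection p-values (offset 16), then arrays were quantile normalized and taken to log2 (neqc steps in limma 3.58.1, R 4.3.3). A probe was kept if its detection p was below 0.05 on 3 or more arrays. Platform annotation gave 1 gene for 34885 probes, several for 18 and none for 10378, and symbols were updated by gene ID through RefSeq. The probe with the highest mean represented a gene; 10641 genes were fitted in limma (lmFit, eBayes, 2-sided) with 1 coefficient for each group and all 12 arrays in the fit, and a call is an adjusted p below 0.05. Second probes were adjusted over probes.

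The members and gene lists were chosen with earlier results of these data known. Other genes are named by rule: the 3 nearest profiles per member, and per list up to 4 called genes with the largest and 2 uncalled with the smallest change in HCC, or up to 3 markers with the highest level. The hepatocyte markers called in HCC are named as well, as are the macrophage markers not called there. Across genes, aggregate and non-aggregate arrays that share a number deviated together from their group means, with correlations of 0.71, 0.54 and 0.64. Such arrays also occupied neighbouring positions of their chip, and the labels do not state that they were paired. Why they deviated together was not tested. For same-numbered arrays of HCC and normal hepatocytes the correlations were -0.01, 0.12 and 0.10. The fit was tested on simulated data with noise independent between arrays, which leaves out the shared deviations of aggregate and non-aggregate arrays. Alternatives changed the background correction, normalization, filter, probe choice, arrays fitted, weights, chips and block, or left out an array. Figures were drawn with matplotlib 3.10.9 (Python 3.11.15).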

Additional observations from a re-analysis of the deposited data

How the results depend on the processing

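All alternatives but the block on single probes were planned. In HCC against normal hepatocytes 5 of the 6 genes passed whichever single array was left out. The same count was 0 in aggregates against non-aggregates, 0 in aggregates and 0 in non-aggregates against normal hepatocytes, 3 to 5 in the difference of the changes, 4 in aggregates against HCC and 4 to 5 in non-aggregates against HCC. With median scaling 2 genes passed in the difference of the changes instead of 4. The call for Fmo5 in that difference was also lost with cyclic loess (adjusted p = 0.0549), without a filter (0.0826) and with array weights (0.0565), and that for Aox1 in aggregates against HCC without background correction (0.116), with median scaling (0.141), without a filter (0.0854) and with array weights (0.0817). In non-aggregates against HCC Aox1 was lost without background correction (0.0562) and with median scaling (0.1). The replicate block changed no call of these 6 genes where it was fitted, but moved the genes called in aggregates from 81 to 843; with it Aox3 fell by 0.06 there (adjusted p = 0.829). It was not fitted across chips.

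Calls over all genes depended on the setting. In aggregates against the main 81 there were 21 without background correction, 215 with median scaling, 153 with cyclic loess, 40 with the submitters' values, 27 without a filter, 225 with only the groups compared and 379 with array weights. In HCC 3868 genes passed with only the groups compared, against 5218. The share of HCC calls that were higher was 47.0%, but 70.8% with median scaling, where the median of all genes moved from -0.08 to 0.18, 58.8% with the submitters' values and 56.7% with cyclic loess.

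Signs turned only for changes that were not called. With median scaling Fmo5 was -0.10 in aggregates against non-aggregates; against normal hepatocytes Fmo2 was 0.0236 and Aox3 -0.0089 in aggregates and Aox1 0.0196 in non-aggregates; Fmo2 was -0.0592 in non-aggregates against HCC. With array weights Fmo5 was -0.0126 in aggregates against non-aggregates, and 0.0889 and 0.10 in aggregates and non-aggregates against normal hepatocytes. Leaving out 1 array turned the sign in 12 of 42 results. In aggregates against non-aggregates the ranges were -0.14 to 0.36 for Fmo4, -0.14 to 0.16 for Fmo5 and -0.18 to 0.12 for Aox3. In aggregates against normal hepatocytes they were -0.0262 to 0.30 for Fmo4, -0.36 to 0.20 for Fmo5, -0.47 to 0.0945 for Aox1, -0.0327 to 0.28 for Aox3 and -0.15 to 0.0033 for Fmo2. In non-aggregates they were -0.17 to 0.30 for Fmo4, -0.37 to 0.19 for Fmo5 and -0.37 to 0.20 for Aox1, and against HCC -0.0487 to 0.0778 for Fmo2. Fmo2 had no value under the stricter filter, nor without normal replicate 1, HCC replicate 3 or aggregate replicate 1, so counts in those fits rest on 5 tested genes. The causes were not tested. Signals of Fmo2 and Aox1 near background limit what can be read from them.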
